A study of Caenorhabditis elegans with 2 samples.

Results

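The genes described here encode the mitochondrial respiratory chain and ATP synthase of Caenorhabditis elegans, and the data show where the Iroquois homeodomain protein IRX-1 was found at their promoters. Members are the nuclear protein-coding genes of the Ensembl WBcel235 annotation whose names begin with nuo-, sdh, ucr-, cyc-, cox-, atp-, asb- or asg-, 42 of 19973 genes. The series holds 1 group, 2 biological replicates of IRX-1-eGFP chromatin immunoprecipitation with sequencing. Whole hermaphrodite L1 larvae of strain OP536 (unc-119(tm4063) III; wgIs536) were collected 6 hours after synchronization, which was done by starving bleached animals, and chromatin was fragmented by sonication. The wgIs536 transgene encodes IRX-1 fused at its C-terminal end to GFP and FLAG, and the precipitation used an antibody against GFP. Both replicates carry the transgene and the unc-119 mutation, so no animals without them enter the values. The chromatin came from whole larvae, so the cell types in which a promoter was bound are not resolved. No list from untagged animals was used here, and whether other immunoprecipitations give signal at the same promoters was not tested.

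The respiratory chain passes electrons from NADH and succinate to oxygen and pumps protons across the inner mitochondrial membrane. Complex I oxidises NADH, complex II oxidises succinate, complex III passes the electrons to the small carrier cytochrome c, and complex IV, cytochrome c oxidase, hands them to oxygen. ATP synthase lets the protons flow back and makes ATP. Most subunits are encoded in the nucleus, and complex IV further needs assembly factors that make its heme and deliver its copper. In worms, mutations in several of these genes change metabolic rate and lifespan.

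A gene was called occupied when a summit of the authors' optimal peak list lay between 1000 bp upstream and 200 bp downstream of its start on ce11, the build that WBcel235 names. The optimal list holds 2445 regions and was deposited as thresholded on the irreproducible discovery rate, a measure of how well peak ranks repeat between replicates. Its regions are the 2445 highest-scoring ones of the authors' list from both replicates pooled. Of the 42 genes 20 were occupied (47.6%, 95% Wilson interval 33.4 to 62.3%, counting error only). Over all nuclear protein-coding genes 9.6% were. The occupied genes numbered 2 of 6 for complex I, 1 of 4 for complex II, 4 of 6 for complex III and 0 of 2 for cytochrome c. They numbered 5 of 7 for complex IV subunits, 2 of 8 for complex IV assembly factors and 6 of 9 for ATP synthase. Among the 1222 highest-scoring optimal regions 14 members remained, against 5.6% of all genes.

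The DNA under 7 of these summits is shown because 6 of them share stretches of sequence with one another and the other, cox-5A, has the highest score of the group. Each line gives the 101 bases centred on the optimal summit, from the RefSeq sequence of WBcel235, 5′ to 3′ on the strand of the gene. Capitals mark runs of 12 or more letters that also occur, on either strand, at another summit shown here; further members share runs too. The genes encode an NADH-binding subunit of complex I (nuo-1), the flavoprotein of complex II (sdha-1), core proteins of complex III (ucr-1 and ucr-2.2), a subunit of complex IV (cox-5A), and subunits b and β of ATP synthase (asb-2 and atp-2). The runs were found by comparing the members' summits, so they are a description chosen after the sequences were seen.
nuo-1 (chrII:11097505-11097605, plus strand): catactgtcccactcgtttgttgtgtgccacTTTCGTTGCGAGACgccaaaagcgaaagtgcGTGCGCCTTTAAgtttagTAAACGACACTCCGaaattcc
asb-2 (chrX:4469448-4469548, plus strand): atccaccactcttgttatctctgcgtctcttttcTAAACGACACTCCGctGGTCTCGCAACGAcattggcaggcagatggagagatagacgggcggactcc
atp-2 (chrIII:5228103-5228203, plus strand): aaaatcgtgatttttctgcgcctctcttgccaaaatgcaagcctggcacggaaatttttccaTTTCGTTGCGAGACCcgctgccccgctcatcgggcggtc
ucr-1 (chrIII:5591934-5592034, plus strand): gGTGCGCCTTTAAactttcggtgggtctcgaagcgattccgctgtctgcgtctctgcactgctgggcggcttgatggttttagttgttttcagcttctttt
sdha-1 (chrX:8546175-8546275, minus strand): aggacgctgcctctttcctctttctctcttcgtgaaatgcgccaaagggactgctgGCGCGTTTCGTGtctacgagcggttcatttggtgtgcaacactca
ucr-2.2 (chrX:15173625-15173725, plus strand): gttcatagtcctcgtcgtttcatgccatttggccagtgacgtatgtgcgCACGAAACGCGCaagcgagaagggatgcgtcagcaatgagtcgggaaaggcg
cox-5A (chrIII:12905149-12905249, plus strand): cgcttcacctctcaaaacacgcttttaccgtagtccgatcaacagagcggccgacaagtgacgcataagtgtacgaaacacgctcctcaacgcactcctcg

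The 12-letter run GTCTCGCAACGA, or its other strand TCGTTGCGAGAC, lay at the summits of nuo-1, asb-2 and atp-2. It was present at 13 of the 2445 optimal summits (0.532%) and in 0.526% of the promoter windows of all genes. Genes whose windows hold such a summit also include hpo-18, which encodes the ε subunit of ATP synthase, and the ribosomal protein genes rpl-18 and rpl-36.A. Most of the other genes with such a summit are of neither kind, among them mcm-7, lin-53, htz-1 and rpn-3. The summit of rpl-36.A is the same as that of nuo-1. The 14-letter run TAAACGACACTCCG was found at 2 optimal summits only, those of nuo-1 and asb-2, while the 14-letter run shared by nuo-1 and atp-2 was found at 5. The 12-letter run shared by nuo-1 and ucr-1 occurred at 12 optimal summits (0.491%) and that shared by sdha-1 and ucr-2.2 at 8. In the promoter windows of all genes the nuo-1 and ucr-1 run was present in 1.60% and the sdha-1 and ucr-2.2 run in 0.0601%. The 14-letter runs of nuo-1 with asb-2 and with atp-2 were present in 0.0451% and 0.200%. A window is 1201 bp long and a summit stretch 101 bp, so the shares are not on the same footing. Another 5 pairs of members share runs of 12 or more letters whose sequences are not shown. They are sdha-1 with cyc-1 (14 letters, at 15 optimal summits), nuo-2 with each of sdha-1, ucr-2.2 and cox-10, and cox-4 with atp-3. These matches describe letters and show no binding site.

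**Figure D1:**
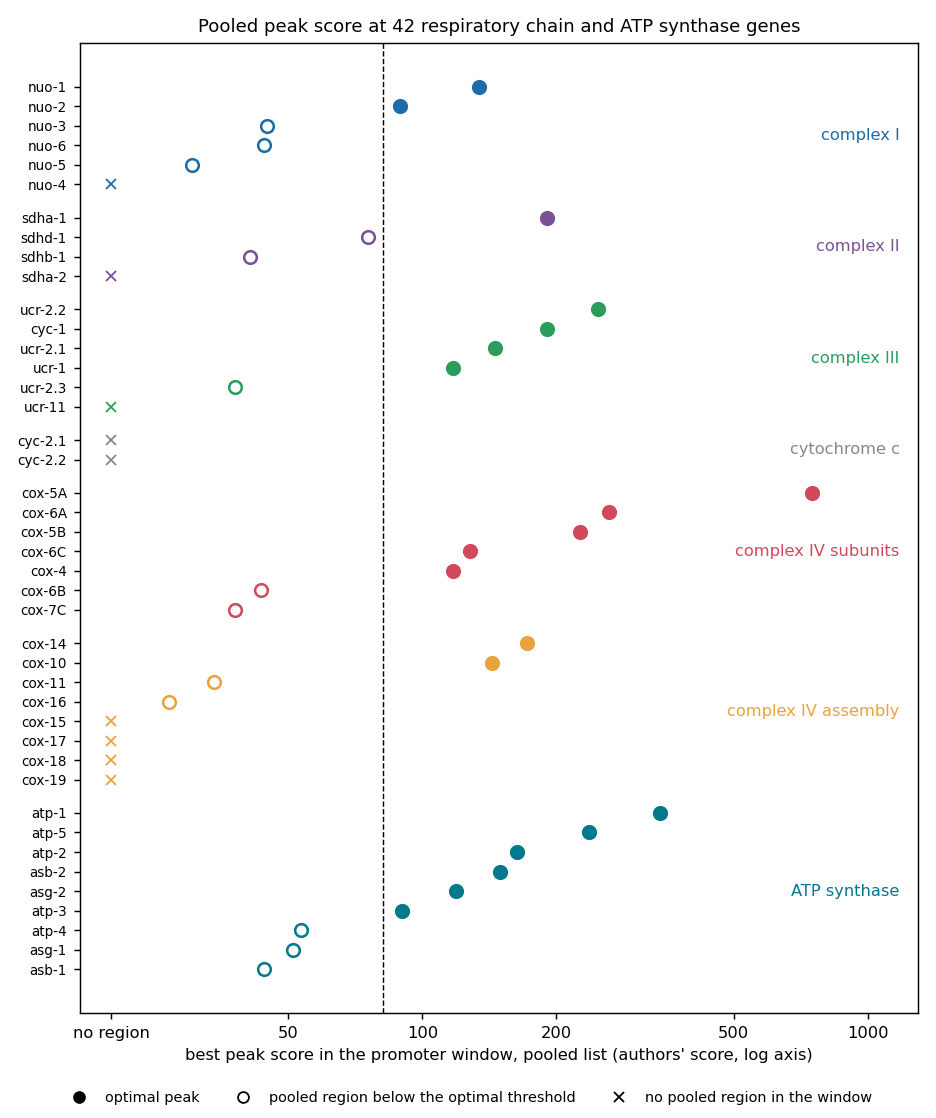
Best peak score of each of the 42 genes in the pooled list, on a log axis, by complex. Filled circles are optimal peaks, open circles are pooled regions below the optimal threshold (dashed line, score 81.4), and crosses are genes with no pooled summit in the window. The filled circles run from 89.0 at nuo-2 to 750.9 at cox-5A.

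Scores below are the authors' own peak scores, whose formula is not given in the sources used here. They describe and rank regions within a list, and the scales of the pooled and replicate lists are not comparable. The optimal list is the 2445 highest-scoring regions of the pooled list, so an optimal score is also the pooled score. Optimal scores run from 81.4 to 1184.9. The median over the 20 occupied members was 156.2, near the 149.1 over all 1917 occupied genes, and 11 of the 20 lay above that value. The share of occupied genes was thus far from that of all genes, and the scores of those occupied were not.

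Complex IV had the highest peak of all the members. The gene cox-5A had a score of 750.9 in the optimal list (rank 26), 432.8 in replicate 1 (rank 25) and 323.2 in replicate 2 (rank 33). Only 21 genes of the genome had an occupied window with a higher score. The peak (chromosome III, 12905065 to 12905319) is intergenic, 292 bp upstream of the gene, and the upstream neighbour unc-71 lies 13753 bp away. For cox-6A, another nuclear subunit, the score was 263.1 (rank 407), with 156.7 in replicate 1 and 103.8 in replicate 2. That summit lies 767 bp upstream of cox-6A, the farthest of all the members, and 59 bp upstream of the snRNA gene F54D8.7 on the other strand. For cox-5B the score was 225.5 (rank 541), with 139.6 and 93.5 in replicates 1 and 2, only 36 bp upstream of the start. The subunit genes cox-6C and cox-4 had lower peaks. The score of cox-6C was 127.7 (rank 1268; 88.5 in replicate 1 and 54.2 in replicate 2). The score of cox-4 was 117.3 (rank 1417; 56.6 in replicate 1 and 60.6 in replicate 2), and its summit lies 470 bp upstream. All 5 rank in the top 2445 regions of both replicates.

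The 2 complex IV subunit genes without an optimal summit were cox-6B and cox-7C. The region at cox-7C scored 38.0 in the pooled list, far below the threshold of 81.4. The annotated gene start of cox-6B had only a pooled region of score 43.4. Another annotated transcript of cox-6B starts 86539 bp downstream of that gene start, and an optimal peak (chromosome III, 2785977 to 2786123) lies 152 bp upstream of it. That peak scored 280.2 (rank 372), with 155.0 in replicate 1 (rank 371) and 121.9 in replicate 2 (rank 396). With the starts of all annotated transcripts, 6 of 7 complex IV subunit genes and 21 of the 42 members were occupied, a choice of start for the complexes that was made after the data were seen.

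Of the assembly factors of complex IV 2 of 8 were occupied (25%, interval 7.15 to 59.1%), and of its subunits 5 of 7 (71.4%, interval 35.9 to 91.8%), with intervals that overlap. The difference was not tested, and it coincided with gene position. Apart from cox-16, every unoccupied assembly factor gene lay within 200 bp of a same-strand upstream neighbour, and no complex IV subunit gene did. Of the assembly genes the occupied ones were cox-14, an assembly factor, and cox-10, the farnesyltransferase of heme synthesis. The score of cox-14 was 171.9 (rank 814; 79.4 in replicate 1 and 90.8 in replicate 2). For cox-10 the score was 143.4 (rank 1072; 61.0 in replicate 1 and 73.8 in replicate 2). Both were higher in replicate 2 by rank. Among the others, cox-11, which takes part in copper delivery, had a pooled region of score 34.0, and the assembly factor gene cox-16 one of 26.9, the lowest of the members. The copper delivery genes cox-17 and cox-19, the heme A synthase gene cox-15 and the membrane insertion gene cox-18 had no summit in the window in any of the lists.

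ATP synthase had 6 of 9 genes occupied (66.7%, interval 35.4 to 87.9%), and all 9 had a pooled summit in the window. The catalytic α and β subunits were both occupied. The gene atp-1, which encodes α, had a score of 341.4 (rank 250), with 201.1 in replicate 1 and 137.4 in replicate 2. Its peak (chromosome I, 12652189 to 12652364) spans the gene start, and its summit, 12 bp upstream, is the nearest to a start of all the members. The gene atp-2, which encodes β and has one of the sequences shown, had a score of 163.2 (rank 879), with 81.6 in replicate 1 and 76.4 in replicate 2. The stalk subunits were less even. For atp-5, subunit d, the score was 236.2 (rank 498; 129.9 in replicate 1 and 110.4 in replicate 2). For atp-3, which encodes the oligomycin sensitivity-conferring protein that joins the stalk to the catalytic head, the score was only 90.1 (rank 2099). Its replicate scores were 52.8 (rank 2017) and 34.4 (rank 3025), so it lay in the top 2445 regions of replicate 1 and not in those of replicate 2. The coupling factor gene atp-4 had a pooled region of score 53.4, below the threshold, with rank 4460 in replicate 1 and 17097 in replicate 2.

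Complex III had 4 of 6 genes occupied (66.7%, interval 30.0 to 90.3%). The core protein gene ucr-2.2 scored highest, 248.4 (rank 461), with 124.4 in replicate 1 and 121.9 in replicate 2. For cyc-1, which encodes cytochrome c1, the score was 190.0 (rank 703), with 99.2 and 89.9 in replicates 1 and 2. Both have tandem neighbours upstream on the same strand, at distances of 268 bp for ucr-2.2 and 458 bp for cyc-1. The core protein genes ucr-2.1 and ucr-1 lie beside divergent neighbours. The score of ucr-2.1 was 145.8 (rank 1046; 77.2 in replicate 1 and 66.1 in replicate 2), and the summit is nearer to the neighbour nmat-1 (95 bp) than to ucr-2.1 (291 bp). The score of ucr-1 was 117.3 (rank 1419; 71.5 in replicate 1 and 47.5 in replicate 2). The remaining pair, ucr-2.3 and ucr-11, were not occupied. In the window of ucr-2.3 a pooled region of score 37.9 had its summit 156 bp downstream of the start, and replicate 2 had none there.

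Complexes I and II are where electrons enter the chain. Of the 6 nuo- genes of complex I the occupied ones were nuo-1 and nuo-2, the latter encoding a core subunit of the peripheral arm. The score of nuo-1 was 133.9 (rank 1184; 67.9 in replicate 1 and 68.0 in replicate 2). For nuo-2 the score was 89.0 (rank 2129), the lowest of the occupied members, with 44.0 in replicate 1 (rank 2779) and 40.4 in replicate 2 (rank 2270). It was thus outside the top 2445 regions of replicate 1. Its peak (chromosome I, 6531926 to 6532335) is the only one of the 20 whose summit lies within a gene, in the 3′ UTR of the neighbour T10E9.14, which ends 20 bp upstream of nuo-2. The accessory subunit genes nuo-3 and nuo-6 had pooled regions of scores 44.9 and 44.1, and nuo-5, which encodes an iron-sulfur core subunit, one of 30.5. The gene nuo-4, another accessory subunit, had no summit in any list.

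Of the 4 sdh genes of complex II only sdha-1 was occupied, with a score of 190.3 (rank 700), 89.0 in replicate 1 and 85.4 in replicate 2. The summit lies 204 bp upstream of sdha-1 and 21 bp upstream of the snoRNA gene D2021.6 on the same strand. The membrane anchor gene sdhd-1 came nearest to the threshold of all unoccupied members, with a pooled score of 75.5 (rank 2748). The replicates differed there. Its score was 27.4 in replicate 1 (rank 8087) and 48.3 in replicate 2 (rank 1687), so the top regions of replicate 2 alone would add it. The iron-sulfur subunit gene sdhb-1 had a pooled region of score 41.1 and none in replicate 1.

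Both cytochrome c genes, cyc-2.1 and cyc-2.2, lacked an optimal and a pooled summit in their windows (0 of 2, upper Wilson bound 65.8%). For cyc-2.1 the nearest optimal summit lay just beyond the window, 1056 bp upstream. It is the summit of the ribosomal protein gene rpl-20, 290 bp upstream of that gene, with a score of 1086.9 (rank 5; rank 3 in replicate 1 and 6 in replicate 2). The gene rpl-20 lies between the peak and cyc-2.1 on the same strand, and it ends 111 bp before cyc-2.1 starts. Within the window of cyc-2.1 itself only low replicate regions were found, at rank 15248 in replicate 1 and 18941 in replicate 2. The other gene, cyc-2.2, had no summit in any list.

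**Figure D2:**
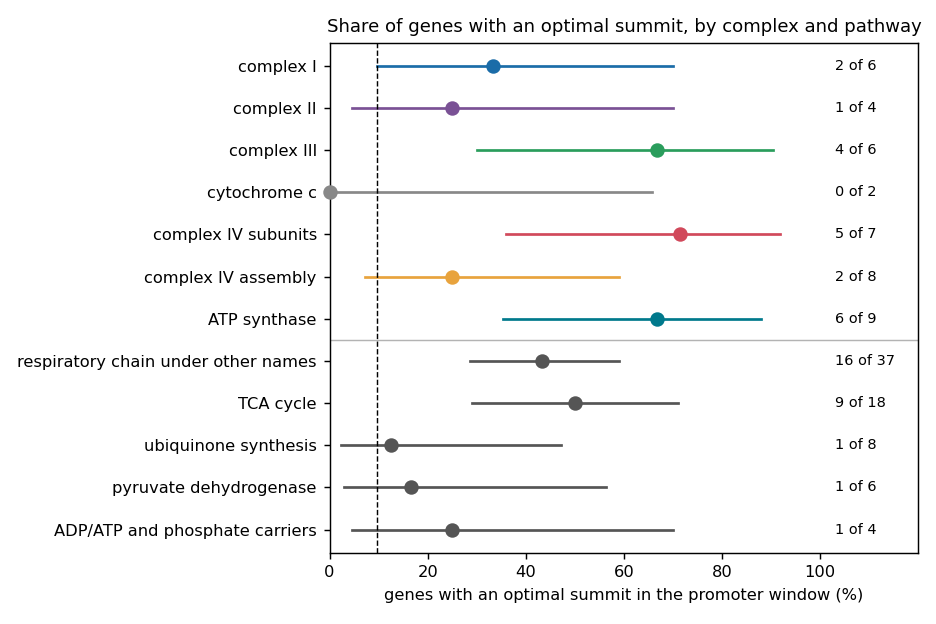
Share of genes with an optimal summit in the promoter window, by complex (above the grey line) and for other lists of the pathway (below it). Points are shares in percent, bars are 95% Wilson intervals, counts stand at the right, and the dashed line is the 9.6% of all nuclear protein-coding genes. Complex III, complex IV subunits and ATP synthase lie highest among the complexes, and the intervals of all complexes overlap.

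The differences between complexes rest on few genes. The interval of complex I ran from 9.68 to 70.0% and that of complex II from 4.56 to 69.9%, which overlap those of every other complex. The intervals of complex III, complex IV subunits and ATP synthase lay wholly above the 9.6% of all genes. Those of complex II, cytochrome c and complex IV assembly factors included it, and the lower bound of complex I lay just above it. Taking all 34 subunit genes without the assembly factors, 18 were occupied (52.9%, interval 36.7 to 68.5%).

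The counts differed little between the replicate lists. Summits of the permissive lists, which hold background as well as peaks, lay in the windows of 33 members (pooled list), 31 members (replicate 1) and 33 members (replicate 2). Over all genes the shares were 38.1%, 39.4% and 35.3%. Among the top 2445 regions, 19 members had a summit in replicate 1 and 20 in replicate 2, against 9.31% and 9.24% of all genes. Of the 20 occupied members, 18 were in the top regions of both replicates. The exceptions were nuo-2 and atp-3, each in the top of 1 replicate. Every one of the 20 had a region holding its optimal summit in both replicate lists. The optimal list is the top of the pooled list by score, and the pooled list draws on both replicates. This match and the agreement of scores and summits given next were therefore partly set by that choice. The replicate scores of the 20 had a Spearman rho of 0.871, given as a description, since the promoters share the same pair of libraries. The summits of the 2 replicates lay a median of 15.5 bp apart and within 50 bp for 18 genes. The exceptions were cox-6C, at 155 bp, and cox-14, at 53 bp.

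**Figure D3:**
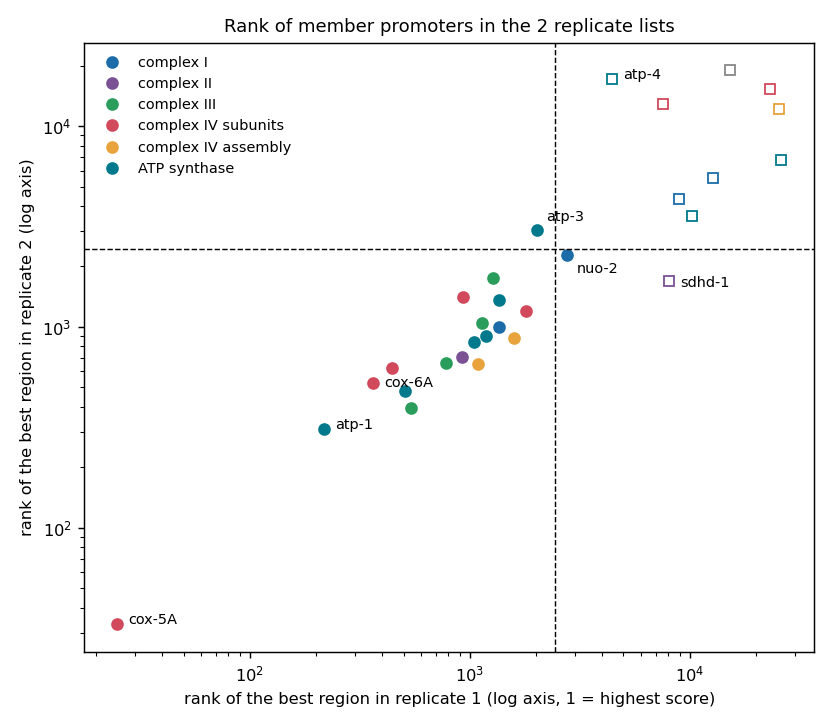
Rank of the best region in the promoter window in replicate 1 (horizontal) and replicate 2 (vertical), both on log axes, for members with a summit in both lists. Filled circles are occupied members, open squares are members without an optimal summit, colours are complexes (the grey square is cyc-2.1), and dashed lines mark rank 2445. Of the filled circles, 18 lie below and left of both lines, and cox-5A, at ranks 25 and 33, lies far ahead of the rest.

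The 22 members without an optimal summit fell into 13 with a weaker pooled summit, of scores 26.9 to 75.5, and 9 with none. In 9 of the 13 both replicates also had a summit in the window. These were sdhd-1, atp-4, asg-1, nuo-3, asb-1, nuo-6, cox-6B, cox-7C and cox-16. Summits of both replicates in a window need not mark the same place. At cox-16 they lay 947 bp upstream in replicate 1 and 260 bp upstream in replicate 2. Apart from sdhd-1, none of the 22 had a summit in the top 2445 regions of either replicate. Just above the threshold lay atp-3 (90.1) and nuo-2 (89.0), and the next below it were sdhd-1 (75.5) and atp-4 (53.4). There were 8 members with no summit in any of the 4 lists, namely nuo-4, sdha-2, ucr-11, cyc-2.2, cox-15, cox-17, cox-18 and cox-19.

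Among the 5 families of close relatives in the list, 4 split and 1 did not. In each of the 4 families at least 1 gene was occupied and another was not, and every occupied one lies on the X chromosome while every unoccupied one lies on an autosome. For subunit b of ATP synthase, asb-2 scored 149.2 (rank 1004; 75.5 in replicate 1 and 72.8 in replicate 2). Its relative asb-1, on chromosome III, had a pooled region of score 44.1, with the summit 41 bp downstream of the start. For subunit g, asg-2 scored 119.2 (rank 1385; 67.8 in replicate 1 and 55.2 in replicate 2), and asg-1 had a pooled region of score 51.3. In both replicates the X-linked copy ranked ahead of the autosomal one. The ranks of asb-1 were 26115 and 6769 in replicates 1 and 2, and those of asg-1 were 10287 and 3554. The flavoprotein gene sdha-1 was occupied, and its relative sdha-2 had no summit in any list. In complex III, ucr-2.1 and ucr-2.2 were occupied and ucr-2.3 was not. The fifth family, cyc-2.1 and cyc-2.2, lies on autosomes and was not occupied at all. Reads that match more than 1 copy could affect such families, and how the authors treated them is not given in the sources used here.

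All 5 members on the X chromosome were occupied, sdha-1, ucr-2.1, ucr-2.2, asb-2 and asg-2, all of them from these families. Over all genes of X 7.69% were occupied, less than on chromosome I (13.4%) or III (14.6%). On chromosome I 6 of 12 members were occupied, on II 2 of 5, on III 5 of 10, on IV 1 of 5 and on V 1 of 5. Over all genes the shares were 8.61% on II, 9.05% on IV and 6.81% on V. Of the further chain genes described below, gas-1, mai-1 and nnt-1 lie on X and were not occupied, with pooled scores of 64.2, 64.3 and 37.1. Of the citric acid cycle genes on X, idhb-1 and sucl-1 were occupied, and idh-2 and suca-1 were not. The counts by chromosome are small and were not tested.

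The summits lay in front of the genes. All 20 lay upstream of the gene start, against 95.9% over all occupied genes, and 19 were intergenic. Their median distance was 241.5 bp (range 12 to 767 bp), and it was 239 bp over all occupied genes. Between 100 and 300 bp upstream lay 15 of the 20 (75%), against 43.8% of all occupied genes. That band was not part of the plan, so these shares are a description that depends on its edges. The summits of cyc-1, ucr-2.1, cox-5A and atp-5 lay just inside it, at 291 to 295 bp. Within 50 bp of the start lay atp-1, atp-3 (31 bp) and cox-5B. Beyond 300 bp lay cox-4 and cox-6A. Their peaks were 118 to 410 bp wide, so the distance of a summit is resolved less finely than the numbers read.

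**Figure D4:**
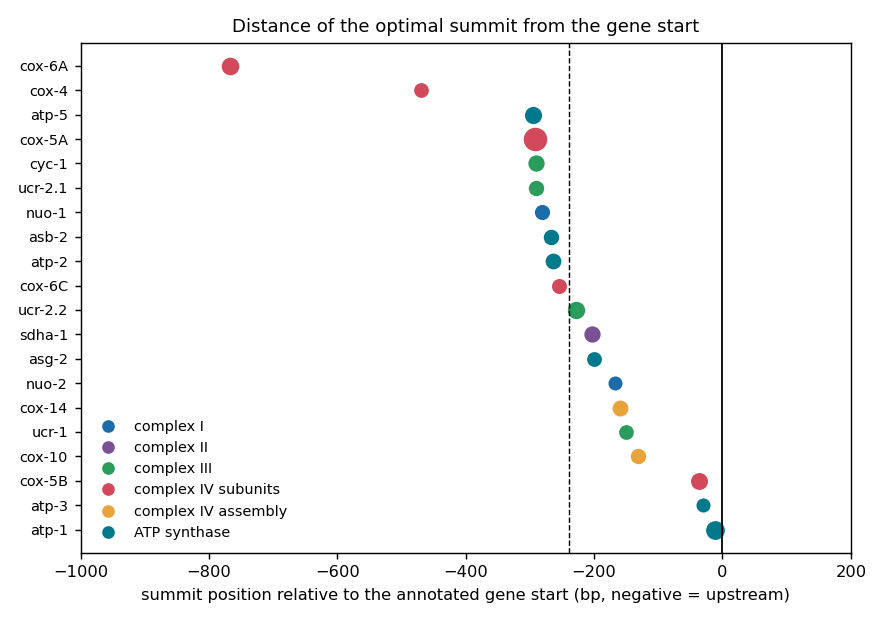
Position of the optimal summit relative to the annotated gene start (bp, negative is upstream) for the 20 occupied members, coloured by complex, with larger circles for higher scores. The solid line is the gene start and the dashed line the median of all occupied genes, 239 bp upstream. A column of 15 genes lies between 100 and 300 bp upstream.

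Many of the summits lie between divergent genes and could belong to either. Of the 20 summits, 11 (55%) also lay in the window of another protein-coding gene, close to the 55.6% over all occupied genes. The protein-coding neighbour was nearer to the summit than the member in 3 cases. These were atp-5 (295 bp) beside lmtr-3 (24 bp), which encodes a subunit of the Ragulator complex, ucr-2.1 beside nmat-1, and cox-14 (160 bp) beside rde-4 (136 bp), which encodes an RNA-binding protein of RNA interference. Assigning each summit to its nearest protein-coding start left 17 of 42 members occupied. Non-coding starts lay nearer than the member at nuo-1 (C09H10.11, 7 bp), sdha-1 (D2021.5, 2 bp), cox-10 (Y38E10A.30, 39 bp) and atp-3 (F27C1.17, 7 bp). The same held at cox-6A (F54D8.7, 59 bp) and, with a pseudogene, at cox-4 (167 bp). For nuo-1 (282 bp) the protein-coding neighbour is the ribosomal protein gene rpl-36.A (351 bp), and for ucr-1 (151 bp) it is the RNA helicase gene ddx-15 (266 bp). No summit was shared by a pair of members.

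Occupied members mostly had a divergent or a distant upstream neighbour. Where the nearest upstream protein-coding gene lay on the other strand, 13 of 23 members were occupied (56.5%), against 14.3% of all genes so placed. Where it lay on the same strand more than 200 bp away, 6 of 8 were (75%), against 5.70%. Where it lay on the same strand within 200 bp, 1 of 11 was (9.09%, interval 1.62 to 37.7%), against 5.09%. The exception was nuo-2. Such close tandem genes, an arrangement that in worms is often an operon transcribed from the first gene's promoter, made up 26.2% of the members and 12.2% of all genes. The limit of 200 bp was chosen after the values were seen, so these counts are a description. Of the 31 members outside close tandem positions 19 were occupied (61.3%, interval 43.8 to 76.3%), against 10.2% of all such genes.

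**Figure D5:**
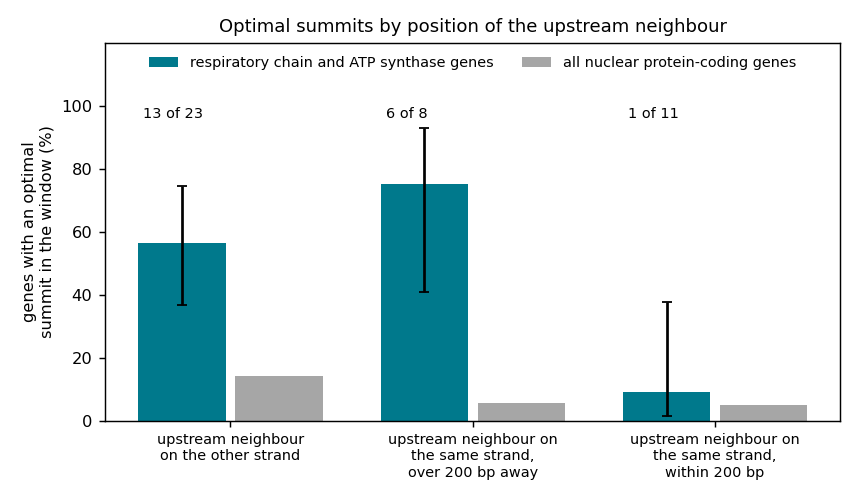
Share of genes with an optimal summit in the promoter window (%), by the strand and distance of the nearest upstream protein-coding gene. Teal bars are the members with 95% Wilson intervals and counts, and grey bars are all nuclear protein-coding genes. Members with a close same-strand neighbour had 1 of 11 occupied, and the other positions had 13 of 23 and 6 of 8.

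For 5 of the 11 close tandem members the optimal summit lay instead at the first gene of the run of same-strand neighbours. Over all 2436 close tandem genes 22.1% had a summit at the first gene and none in their own window, and 24.9% had one at the first gene whatever their own window held. The run that ends in cox-18 begins with Y55F3AR.2, whose summit scored 615.6 (rank 60; rank 49 in replicate 1 and 68 in replicate 2). That of cyc-2.1 begins with rpl-20, described above. The run of ucr-11, which encodes a small subunit of complex III, begins with dad-1, a subunit gene of the oligosaccharyltransferase. The dad-1 summit scored 259.9 (rank 425) and lies 1302 bp upstream of ucr-11. The run of nuo-4 begins with the splicing factor gene syf-2 (186.5, rank 712), and that of cox-17 with the ubiquitin-conjugating enzyme gene ubc-20 (112.8, rank 1504). The first genes upstream of nuo-5, cox-11, cox-15, cox-19 and atp-4 had no optimal summit. With a member counted when its own window or that of the first gene held a summit, 25 of 42 were occupied (59.5%, interval 44.5 to 73.0%), against 12.3% of all genes. Whether these genes are transcribed together was not tested.

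Other genes of the respiratory chain carry names outside the rule, and many were occupied too. A list of 37 further genes held subunits of the chain and of ATP synthase together with assembly and other factors, such as nuaf-1, sco-1, mai-1 and nnt-1. Of these genes 16 were occupied (43.2%, interval 28.7 to 59.1%). The highest score was at sco-1, which takes part in copper delivery to complex IV, at 593.5 (rank 65; rank 73 in replicate 1 and 56 in replicate 2). The complex I subunit gene ndub-8 scored 373.4, mev-1, which encodes the cytochrome b subunit of complex II, 330.9, and the complex I subunit gene ndua-8 302.0. With sdha-1 and mev-1, both a catalytic and a membrane subunit gene of complex II were occupied. The Rieske iron-sulfur protein gene isp-1 scored 108.2, and gas-1, a core subunit gene of complex I, had only a pooled region of score 64.2. Both isp-1 and gas-1 were picked after their values were seen, as was hpo-18, which scored 88.1. Some of these summits could belong to a neighbour on the other strand. Those of mev-1, ndua-8, isp-1 and hpo-18 lie 144, 250, 284 and 560 bp upstream of the named gene. The divergent neighbours jmjd-4, rbc-2, islo-1 and mcm-7 lie 259, 374, 334 and 741 bp away from it. Each of these summits is thus nearer to the neighbour.

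The list for the citric acid cycle, which supplies the chain with NADH and succinate, had 9 of 18 genes occupied (50%, interval 29.0 to 71.0%), against 9.6% of all genes. It also holds icl-1, the isocitrate lyase gene of the glyoxylate cycle, which was among the occupied genes at 90.0. The highest were dld-1, the dihydrolipoamide dehydrogenase gene, at 413.3, aconitase aco-2 at 224.3, malate dehydrogenase mdh-2 at 181.3 and citrate synthase cts-1 at 150.4. The aco-2 summit lies 327 bp upstream of aco-2, and the divergent neighbour eef-1B.1 lies 331 bp from aco-2. That summit is thus much nearer to eef-1B.1 and could belong to it. Lists with few genes had 1 occupied gene each, and their intervals all include the 9.6% of all genes. Ubiquinone synthesis had 1 of 8 (12.5%, interval 2.24 to 47.1%), the methyltransferase gene coq-5 at 204.4. The pyruvate dehydrogenase list had 1 of 6 (16.7%, interval 3.01 to 56.4%), the kinase gene pdhk-2 at 393.0. The list of carriers that exchange ADP, ATP and phosphate had 1 of 4 (25%, interval 4.56 to 69.9%), ant-1.1 at 220.3.

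The sequence within 50 bp of the members' summits was searched for 4 short motifs named from earlier results of these data, on both strands. GACGCA was present at 4 of 20 member summits (20%), ucr-1, ucr-2.2, cox-5A and asb-2, and at 15.8% of all optimal summits. GAGAGA was present at 2 (10%), against 26.5%. ACATGT, the core known for mouse Iroquois proteins, was present at 1, asg-2 (5%, against 3.35%), and CGCGCG at 1, cox-5B (5%, against 5.73%). In the whole promoter windows ACATGT was found in 21.4% of members and 26.9% of all genes, GACGCA in 28.6% and 25.0%, GAGAGA in 50% and 50.9%, and CGCGCG in 7.14% and 7.68%. None of the 4 was at more than 4 member summits.

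Of all 2080 6-mers, 5 were present at 6 or more member summits and were picked for that. AAAAAT lay at 7 (35%, against 26.4% of all optimal summits). AAGGCG lay at 6 (30%, against 5.44%), GAGACC at 6 (7.69%), GGCGCA at 6 (9.69%) and ACGAAA at 6 (9.86%). They are not separate from the shared runs. AAGGCG and GGCGCA overlap each other within the run shared by nuo-1 and ucr-1. ACGAAA lies within the run shared by nuo-1 and atp-2 and within that shared by sdha-1 and ucr-2.2. The summits with GAGACC are those of cyc-1 and ucr-1 of complex III, the complex IV assembly gene cox-14, and asb-2, asg-2 and atp-2 of ATP synthase. The motif overlaps the run shared by asb-2 and atp-2. At asb-2 and asg-2 it lay 3 bp and 1 bp from the summit, and at the others 23 to 32 bp from it. Since the 6-mers were chosen for their frequency at these summits, the percentages are a description. The GC content of the 101 bases had a median of 51.0% over the members (range 31.7% at cox-6C to 57.4%) and 46.5% over all optimal summits.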

How the data were processed

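The authors deposited peak lists for ce11 and ce10, and the ce11 lists were used. Per the file headers in the notes that came with them, each replicate has a permissive list, the pooled alignments have another, and an optimal list passed an IDR threshold. A control file entered each. For the aligner, the peak caller and the IDR threshold, a name or value is not given in the sources used here. A deposited region has a peak score, used to rank and describe regions, and a deposited −log10 q value, which entered no result. Lists hold 2445 (optimal), 28191 (pooled), 30000 (replicate 1) and 24949 (replicate 2) regions. No reads were counted here, so depth is unknown, and intervals (95%, Wilson) cover counting error only.

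Summits were set against gene starts of Ensembl release 115 (WBcel235), and sequences came from the RefSeq FASTA of that assembly, with Python 3.11.15, numpy 2.4.6, scipy 1.17.1 and matplotlib 3.10.9. Coordinates are 1-based. Counting was tested on simulated data. With 1 group there was no comparison between conditions, and no p-value was computed. Spread between the 2 replicates may be biological or technical. The members and lists were chosen with earlier results of these data known. By rule, the text names each occupied member, accounts for every other member, and names the 4 highest-scoring genes of each other list. Protein identity between relatives was planned and is not analysed here.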

Additional observations from a re-analysis of the deposited data

How the results depend on the processing

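No paired analysis was possible because there is only 1 group of samples. Of 62 alternative values, 54 stayed within 1.5 times the count or within the spread of the main value. The count of 20 occupied members was 19 in a window reaching 500 bp upstream and 100 bp downstream (cox-6A lost), 22 in one reaching 2000 bp upstream and 500 bp downstream (ucr-11 and cyc-2.1 gained), 17 by nearest start, 21 with 1 bp of overlap, and 19 to 20 with the top regions of 1 replicate. Limited to genes with a pooled summit it was 20 of 33 (60.6%, against 25.2% of all such genes), and without members in operon-like positions (a same-strand upstream neighbour within 1000 bp) 15 of 25 (60%, against 11.0%).

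The other 8 moved. Complex I fell from 2 to 1 among the 1222 highest-scoring regions, and ranged from 1 to 2 with 1 replicate left out (nuo-2 decides). Complex II ranged from 1 to 2 with 1 replicate left out (sdhd-1 decides). Cytochrome c rose from 0 to 1 in the wider window, through the rpl-20 summit. Complex IV subunits fell from 5 to 3 among the 1222 highest-scoring regions. Limiting the permissive lists to their top 2445 regions gave 20 members (pooled), 19 (replicate 1) and 20 (replicate 2), which follows from the fewer regions. The pooled value was fixed in advance, since those regions are the optimal list. The replicate values repeat the counts with 1 replicate left out. The cause of the other moves was not tested beyond the genes named. The median score ranged from 149.2 to 180.9, and the median distance of 241.5 bp did not move. Each occupied window held only 1 optimal summit, so taking the summit nearest to the start could not change the distance. No pair of members shared a summit, so counting each summit once could not change the score. Both alternatives are among the values that stayed. Counting the first gene of a close tandem run, and any transcript start for the complexes, were chosen after seeing the data.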
